A study of Rattus norvegicus with 3 samples.

Results

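The 33 genes described here mark macrophages and other myeloid cells, leukocytes in general, antigen presentation and lymphocytes, with 3 secreted or lectin genes that macrophages make, and were followed across 3 muscles of the rat. They were chosen by symbol as genes of these cell types, and 32 of the 33 have a probe on the array, out of 15162 genes that could be named. Ms4a1, the B cell gene that encodes CD20, had no probe matched to it. The 32 genes are read by 36 probes and 109 spots.

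Each of the 3 one-colour arrays held messenger RNA from muscle of male Wistar Honnover rats aged 12 weeks. One was hybridised with soleus taken 28 days after the left sciatic nerve had been transected in the gluteal region, 1 with plantaris of untreated rats and 1 with soleus of untreated rats. The soleus is a slow postural muscle of the calf and the plantaris a faster muscle beside it. The labels mention no sham operation and do not say how many animals each array stands for. The normal soleus sample carries the title Post and was placed by its source name, Normal soleus muscle. There is 1 array per group, so no value has a replicate, no test across animals could be run, and every fold below describes these arrays. The denervated soleus was on 1 slide and scan, and plantaris and normal soleus were together on another, so denervation and slide cannot be told apart. Both comparisons use the same normal soleus array.

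Skeletal muscle holds resident macrophages between its fibres, which clear debris, present antigen and secrete signals to fibres and connective tissue cells. Macrophages are recognised by scavenger receptors, the receptor for colony-stimulating factor 1, the adaptor proteins Tyrobp and Fcer1g, lysosomal enzymes and, in tissue, by making the C1q subunits that start the classical complement pathway. Antigen-presenting cells display peptides on MHC class II molecules, each a pair of an alpha and a beta chain, which in the rat are named RT1-D and RT1-B, and the invariant chain Cd74 guides them through the cell. T cells carry the CD3 complex with CD4 or CD8, cytotoxic cells carry perforin, and B cells carry CD79 and CD20. In whole muscle, fewer cells of a type and less RNA per cell cannot be told apart.

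The class II genes are shown first, to set beside their values below the letters that their promoters share. In the rat the alpha chain genes RT1-Da and RT1-Ba and their beta chain partners RT1-Db1 and RT1-Bb lie close together on chromosome 20. The lines below give the 250 bases before each annotated start in RefSeq (assembly GRCr8), 5′ to 3′ on the strand of the gene, with the letters CTGATTGG in capitals. These letters hold the inverted CCAAT sequence known in class II promoters as the Y box.
RT1-Da, chr20:4515165-4515414, plus strand: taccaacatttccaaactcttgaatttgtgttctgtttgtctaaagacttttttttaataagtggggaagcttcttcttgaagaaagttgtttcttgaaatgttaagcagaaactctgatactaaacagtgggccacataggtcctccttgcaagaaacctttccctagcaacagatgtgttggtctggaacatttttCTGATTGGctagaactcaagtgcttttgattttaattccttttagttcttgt
RT1-Db1, chr20:4560163-4560412, minus strand: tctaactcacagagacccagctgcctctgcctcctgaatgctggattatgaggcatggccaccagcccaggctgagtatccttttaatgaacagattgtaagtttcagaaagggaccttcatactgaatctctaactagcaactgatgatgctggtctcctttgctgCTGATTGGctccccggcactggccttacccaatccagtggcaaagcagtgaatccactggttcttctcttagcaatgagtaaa
RT1-Ba, chr20:4576807-4577056, plus strand: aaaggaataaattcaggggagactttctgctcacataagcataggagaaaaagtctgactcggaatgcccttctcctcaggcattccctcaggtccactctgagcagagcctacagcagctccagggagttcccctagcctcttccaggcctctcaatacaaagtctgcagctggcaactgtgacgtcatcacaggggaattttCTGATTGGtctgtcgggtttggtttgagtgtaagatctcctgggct
RT1-Bb, chr20:4604119-4604368, minus strand: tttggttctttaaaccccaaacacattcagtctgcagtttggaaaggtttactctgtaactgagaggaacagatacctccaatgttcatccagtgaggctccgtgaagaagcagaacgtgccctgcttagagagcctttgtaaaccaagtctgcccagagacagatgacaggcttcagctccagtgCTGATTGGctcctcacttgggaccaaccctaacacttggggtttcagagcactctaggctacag
These 4 hold the 8 letters once each, and the same window of Cd74 held 0 matches, which says only that these letters are not there. The first capital lies 52 bases before the start in RT1-Da, 83 in RT1-Db1, 46 in RT1-Ba and 64 in RT1-Bb. Searched on both strands, CTGATTGG stood in the same window of 1068 of 33469 RefSeq promoters (3.19%). Of the 33 genes, 23 had a promoter in the table, and 3 of them held the letters in any of their promoters, namely RT1-Ba, RT1-Da and Cd68. This count is of genes and the 3.19% of single promoters, so they are unlike measures. A match is a description of the letters only.

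Across the arrays, 28 of the 32 genes were well above background on all 3, and 4 on none. Signals are given as multiples of the array's own 75th percentile signal, which was 1217 on the denervated soleus array, 744 on the plantaris array and 903 on the normal soleus array. Between 64.2% and 67.0% of all probes were well above background. The ± beside each log2 fold is the error that the scanner software gives for the 2 signals, and it covers measurement only. It is not the spread of the repeat spots. Over the measured members it ran from 0.204 to 0.308 with denervation, with a median of 0.204. In plantaris it ran from 0.204 to 0.406, with a median of 0.205. It was thus nearly the same for all but faint genes. Brightness depends on the probe, so levels are compared between arrays and not between genes.

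In the denervated soleus, 22 of the 28 measured genes were higher than in the normal soleus and 6 were lower, and none reached 2-fold. Their median log2 fold was 0.30, against 0.03 for all 11313 genes compared. Among all those genes, 8.73% reached 2-fold on the higher side and 13.4% on the lower side (22.2% either way), and of those with a fold 51.5% lay above 0 and 48.5% below. In 19 of the 28 the fold was larger than the software's error and in 9 it was not. In the plantaris, 26 of the 28 were lower than in the normal soleus and 2 were higher. The median was -0.66, against 0.02 for all 11010 genes compared. Spp1, Cd5, Lgals3 and Itgb2 were at least 2-fold lower in plantaris, which is 14.3% of the 28, where 6.1% of all genes compared were lower by that much. None was 2-fold higher, where 5.71% of all genes were (11.8% either way). Among all genes with a fold, 52.3% lay above 0 and 47.7% below. In 27 of the 28 the fold was larger than the software's error, the exception being Cd4. No share over all genes is given for either count against the error, so neither is a result about these genes alone.

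Set side by side, 21 of the 28 had their highest signal in the denervated soleus, the next in the normal soleus and the lowest in the plantaris. That order held in 24.9% of the 9856 genes measured on all 3 arrays. Cd68, Itgam, Itgb2, Lyz2 and Cd5 were highest in the normal soleus and lowest in the plantaris. Cd4 was highest in the denervated and lowest in the normal soleus, and Cd3d was highest in the plantaris and lowest in the denervated soleus.

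**Figure D1:**
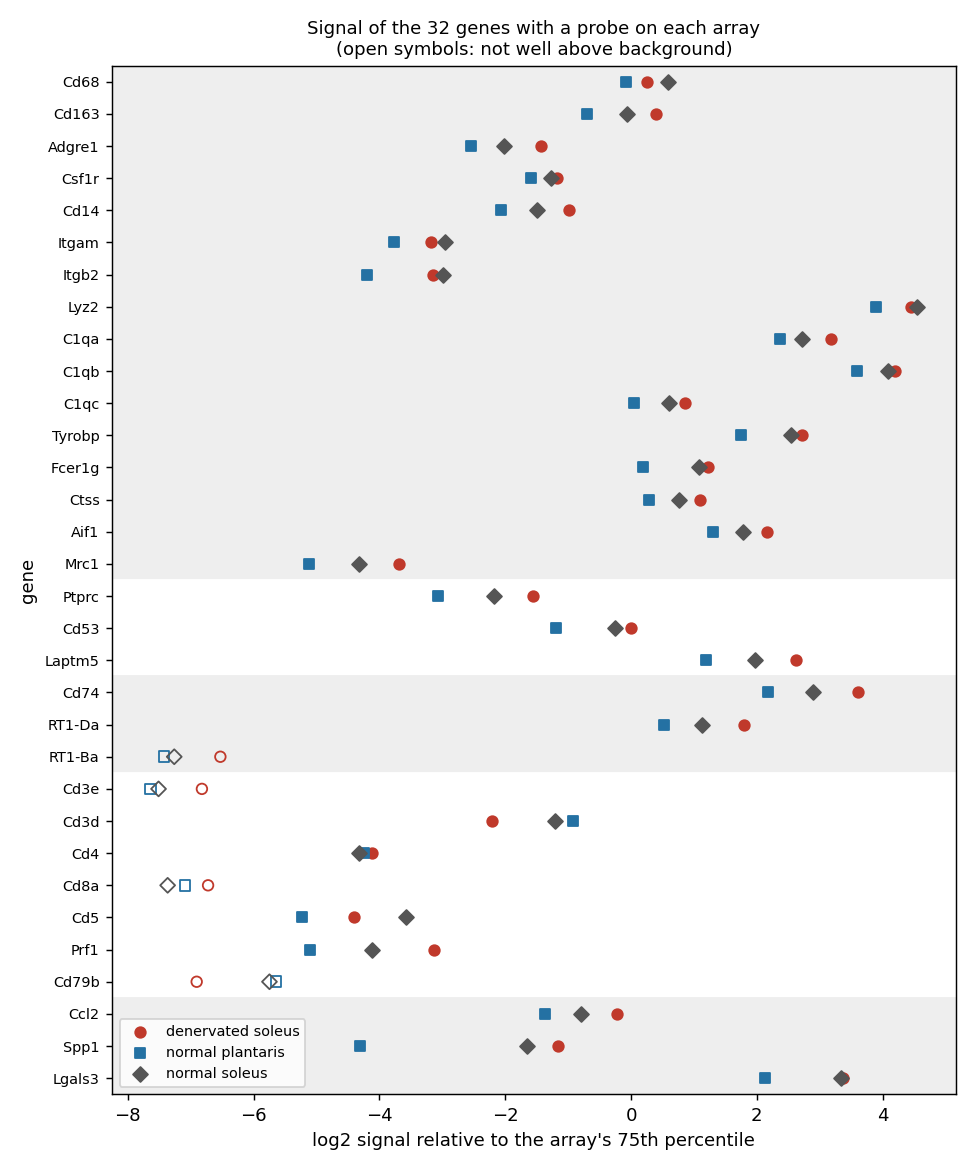
Log2 signal of each gene relative to the 75th percentile of its array, for denervated soleus (circles), normal plantaris (squares) and normal soleus (diamonds), 1 array each, in shaded blocks from macrophage genes at the top to secreted genes at the bottom. Open symbols mark signals not well above background, which are the 4 genes RT1-Ba, Cd3e, Cd8a and Cd79b, and in 26 of the 28 measured genes the square lies left of the diamond.

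The 16 macrophage genes were all lower in plantaris than in normal soleus, with a median log2 fold of -0.60 and a range of -1.20 to -0.33. In the denervated soleus 12 were higher and 4 lower, with a median of 0.22. The scavenger receptor Cd163, which takes up haemoglobin bound to haptoglobin, had a relative signal of 1.32 in denervated soleus, 0.617 in plantaris and 0.951 in normal soleus. Its log2 fold was 0.47 ± 0.20 with denervation and -0.62 ± 0.20 in plantaris. Adgre1, the gene of the F4/80 antigen, had 0.373 in denervated soleus, 0.172 in plantaris and 0.248 in normal soleus. Its folds were 0.59 ± 0.21 and -0.53 ± 0.21, so both genes were higher in the denervated soleus and lower in the plantaris by similar amounts.

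Mrc1, the mannose receptor CD206, was faint, at 0.0773 in denervated soleus, 0.0287 in plantaris and 0.0500 in normal soleus. Its fold was 0.63 ± 0.29 with denervation and -0.80 ± 0.41 in plantaris, where only 1 of its 2 spots was well above background. With normexp background subtraction the fold was 0.08 with denervation and -0.0013 in plantaris. Cd14, the co-receptor for bacterial lipopolysaccharide, had 0.503 in denervated soleus, 0.239 in plantaris and 0.356 in normal soleus. Cd14 was thus higher in the denervated (0.50 ± 0.21) and lower in the plantaris array (-0.57 ± 0.21).

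The 3 subunits of C1q kept the same order of arrays. C1qa had a relative signal of 9.08 in denervated soleus, 5.18 in plantaris and 6.57 in normal soleus. C1qb had 18.4 in denervated soleus, 12.0 in plantaris and 16.9 in normal soleus, and C1qc had 1.82, 1.03 and 1.52 on the same arrays. The log2 folds with denervation were 0.47 ± 0.20 for C1qa, 0.12 ± 0.20 for C1qb and 0.26 ± 0.20 for C1qc, so that of C1qb lay within its error. In plantaris all 3 were lower, by between 0.34 for C1qa and 0.56 for C1qc.

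Csf1r, the receptor through which macrophages receive survival signals, had 0.444 in denervated soleus, 0.331 in plantaris and 0.416 in normal soleus, a fold of 0.10 ± 0.21 with denervation and -0.33 ± 0.21 in plantaris. Its second probe had 0.161 in denervated soleus, 0.162 in plantaris and 0.165 in normal soleus, nearly level across the arrays. Tyrobp, the adaptor that passes signals from activating receptors such as Trem2, had 6.57 in denervated soleus, 3.36 in plantaris and 5.80 in normal soleus. Its log2 fold was 0.18 ± 0.20 with denervation, within the error, and -0.79 ± 0.20 in plantaris.

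Fcer1g, the shared gamma chain of Fc receptors, had 2.32 in denervated soleus, 1.14 in plantaris and 2.11 in normal soleus, and its second probe 1.61, 0.905 and 1.42 on the same arrays. Both probes were lower in plantaris and within 0.2 log2 units of normal soleus after denervation. Aif1, the actin-bundling protein Iba1, had 4.49 in denervated soleus, 2.47 in plantaris and 3.44 in normal soleus, and its second probe had 3.80, 1.72 and 2.45 on the same arrays. The first probe gave 0.39 ± 0.20 with denervation and the second 0.63 ± 0.20, and both were lower in plantaris. Ctss, the lysosomal protease that trims the invariant chain, had 2.15 in denervated soleus, 1.22 in plantaris and 1.69 in normal soleus, a fold of 0.34 ± 0.20 with denervation.

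Cd68, Lyz2, Itgam and Itgb2 were the 4 macrophage genes with a fold below 0 after denervation, of which only that of Cd68 was larger than its error. Cd68, a glycoprotein of lysosomes and late endosomes, had 1.19 in denervated soleus, 0.950 in plantaris and 1.51 in normal soleus, with a log2 fold of -0.35 ± 0.20 with denervation. One of its 2 spots was left out as an outlier on both the plantaris and the normal soleus array, and its fold with denervation was -0.81 when outlier spots were kept and -0.11 under the authors' scaling. Lyz2, the lysozyme of macrophages and granulocytes, had 21.8 in denervated soleus, 14.9 in plantaris and 23.4 in normal soleus. Its fold of -0.10 ± 0.20 with denervation lay within the error and changed sign under quantile normalization, the authors' scaling and spike-in scaling.

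Itgam and Itgb2 encode the alpha and beta chain of the integrin Mac-1, which myeloid cells use to adhere and to take up particles coated with complement. Itgam had 0.110 in denervated soleus, 0.0738 in plantaris and 0.128 in normal soleus. Itgb2, read by a probe with 10 spots, had 0.113 in denervated soleus, 0.0548 in plantaris and 0.126 in normal soleus. After denervation both were within their error of normal soleus, and both changed sign under the authors' scaling, as Itgb2 also did under spike-in scaling. In plantaris Itgam was lower (-0.80 ± 0.25) and Itgb2 was 2.30-fold lower (-1.20 ± 0.26). The single spots of Itgb2 ran from 0.0484 to 0.0621 in plantaris and from 0.109 to 0.141 in normal soleus and did not overlap. With background subtracted by normexp, the plantaris fold of Itgb2 was -0.53 and no longer past 2-fold.

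**Figure D2:**
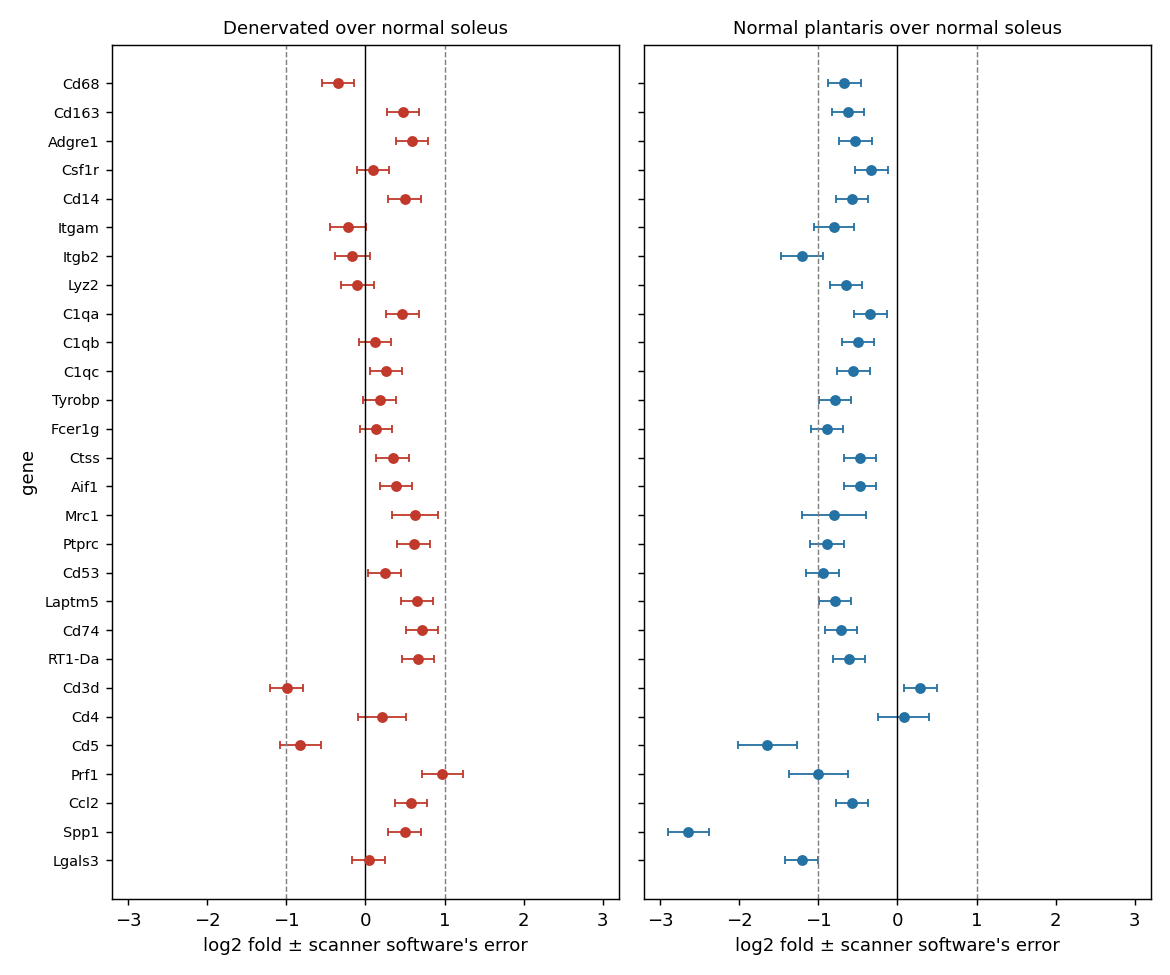
Log2 fold of the 28 measured genes, denervated over normal soleus on the left and plantaris over normal soleus on the right, with bars for the scanner software's error and dashed lines at 2-fold. On the left 22 points lie above 0 and none passes a dashed line, and on the right 26 lie below 0 and Itgb2, Cd5, Spp1 and Lgals3 pass it.

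The 3 genes of leukocytes in general shared a direction in each comparison. Ptprc, the phosphatase CD45 found on nearly all nucleated blood cells, had a relative signal of 0.338 in denervated soleus, 0.119 in plantaris and 0.221 in normal soleus over 10 spots. The spots spanned 0.307 to 0.370 in denervated soleus, 0.110 to 0.126 in plantaris and 0.207 to 0.237 in normal soleus, so the 3 arrays did not overlap for this probe. The fold was 0.61 ± 0.21 with denervation and -0.89 ± 0.22 in plantaris, and a second probe of Ptprc was well above background in neither spot on the plantaris array.

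Laptm5, a lysosomal membrane protein of blood cells, had 6.18 in denervated soleus, 2.28 in plantaris and 3.94 in normal soleus. Its fold was 0.65 ± 0.20 with denervation and -0.79 ± 0.20 in plantaris. Cd53, a leukocyte tetraspanin, had 0.995 in denervated soleus, 0.436 in plantaris and 0.841 in normal soleus. Cd53 differed least of the 3 with denervation (0.24 ± 0.20) and most in plantaris (-0.95 ± 0.21).

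The antigen presentation genes had the highest median of the 5 groups with denervation, 0.69, over the 2 that could be measured. Cd74, the invariant chain, had 12.1 in denervated soleus, 4.51 in plantaris and 7.39 in normal soleus. The denervated array was 1.64-fold higher (0.72 ± 0.20) and the plantaris array 1.64-fold lower (-0.71 ± 0.20). RT1-Da, an alpha chain, had 3.48 in denervated soleus, 1.43 in plantaris and 2.19 in normal soleus. Its fold was 0.66 ± 0.20 with denervation and -0.61 ± 0.20 in plantaris, close to that of Cd74 both times. The other alpha chain, RT1-Ba, was not well above background on any array, so no fold is given.

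The beta chains are not among the 33 genes. RT1-Db1, the partner of RT1-Da, had a relative signal of 6.92 in denervated soleus, 1.65 in plantaris and 2.66 in normal soleus, a fold of 1.38 ± 0.20 with denervation, and its second probe gave 1.01. In plantaris its probes gave -0.69 ± 0.20 and -0.51. RT1-Bb, the partner of RT1-Ba, had 6.36 in denervated soleus, 0.683 in plantaris and 1.48 in normal soleus, a fold of 2.10 ± 0.20 with denervation. A second probe of RT1-Bb went the other way (-0.45), and the mean over both was 0.82, under 2-fold. Class II and class I genes are polymorphic and have near-identical copies, so which allele or copy a probe reads is uncertain. Over 12 further class II genes, 11 were compared, 3 were at least 2-fold higher with denervation (RT1-Bb, RT1-Db1 and Ctsh, a lysosomal protease) and 0 lower, with a median of 0.54. Of all genes, 8.73% were higher and 13.4% lower by that much. In plantaris 1 of 10 compared, RT1-Bb, was 2-fold lower (-1.12 ± 0.20), beside 6.1% of all genes, with a list median of -0.55. The second probe of RT1-Bb gave -0.44 there and the mean over both was -0.78, under 2-fold.

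Among class I presentation genes, which display peptides from inside the cell, 3 of 18 compared were at least 2-fold higher with denervation and 0 lower, with a median of 0.69. The shares of all genes were 8.73% higher and 13.4% lower. The heavy chain gene RT1-A1 had 27.6 in denervated soleus, 6.55 in plantaris and 8.82 in normal soleus (1.64 ± 0.20 with denervation), and its second probe gave 1.86. RT1-S3 had 3.74 in denervated soleus, 0.718 in plantaris and 1.04 in normal soleus, with a fold of 1.85 ± 0.20 with denervation. RT1-CE5 gave 1.502 ± 0.20 on its brighter probe and -1.59 on the other, and the mean over both was -0.04, so its direction was not settled. In plantaris 0 of 18 passed 2-fold, where 11.8% of all genes did either way. B2m, the light chain shared by class I molecules, had 39.2 in denervated soleus, 12.3 in plantaris and 22.7 in normal soleus.

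The lymphocyte genes did not share a direction. Of the 8, 4 were measured, and their median was -0.31 with denervation and -0.46 in plantaris, each of which took the other sign (0.21 and 0.08) when dim probes were kept. Cd3e, an invariant chain of the T cell receptor complex, Cd8a, the co-receptor of cytotoxic T cells, and Cd79b, a signalling chain of the B cell receptor, were not well above background on any array. Cd3d, another chain of the same T cell receptor complex, was well above background in every spot used, with 0.216 in denervated soleus, 0.527 in plantaris and 0.431 in normal soleus. Cd3d thus had the lowest fold of the 28 with denervation (-0.99 ± 0.21), just under 2-fold, and quantile normalization brought it to -1.07. Its spots spanned 0.194 to 0.237 in denervated soleus, 0.480 to 0.613 in plantaris and 0.394 to 0.517 in normal soleus. The normal soleus spots overlapped with those of plantaris and not with those of denervated soleus, and the sign in plantaris turned under spike-in scaling.

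Cd5, an inhibitory receptor of T cells, had 0.0473 in denervated soleus, 0.0268 in plantaris and 0.0836 in normal soleus. It was lower with denervation (-0.82 ± 0.26) and 3.12-fold lower in plantaris (-1.64 ± 0.38), where only 1 of its 2 spots was well above background. After normexp background subtraction the plantaris fold was -0.60, under 2-fold. Cd4, the co-receptor of helper T cells that rat macrophages also carry, was faint and near level, with 0.0575 in denervated soleus, 0.0525 in plantaris and 0.0497 in normal soleus. Both of its folds, 0.21 ± 0.31 with denervation and 0.08 ± 0.33 in plantaris, lay within their error, and each changed sign under an alternative setting.

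Prf1, the pore-forming perforin of cytotoxic T and natural killer cells, had the highest fold of the 28 with denervation. Its relative signal was 0.114 in denervated soleus, 0.0290 in plantaris and 0.0579 in normal soleus, a log2 fold of 0.97 ± 0.26 with denervation and -0.9999 ± 0.37 in plantaris. Both lie just under 2-fold, and both pass it under median centring, the authors' scaling and spike-in scaling. The signal was faint, and with normexp the fold with denervation was 0.31 and that in plantaris -0.26.

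Of 36 further genes of T, natural killer and B cells, 25 were compared with denervation, and 4 passed 2-fold on the higher side and 5 on the lower side. Over all genes 8.73% passed it on the higher side and 13.4% on the lower side. Il2rg, the common gamma chain of cytokine receptors, had 4.70 in denervated soleus, 19.8 in plantaris and 20.6 in normal soleus (-2.13 ± 0.20 with denervation). Klrk1, the NKG2D receptor, and Pax5, a transcription factor of B cells, were lower by 1.70 and 1.68 log2 units. On these probes the 3 genes were well above background on every array, where Cd3e, Cd8a and Cd79b were on none. A second probe of Klrk1 was well above background on neither soleus array and gave 0.17 with denervation. Cd6, a T cell receptor related to Cd5, had 3.96 in denervated soleus, 0.862 in plantaris and 6.45 in normal soleus, with a fold of -2.90 ± 0.20 in plantaris. There 3 of the 20 compared were 2-fold lower and 0 higher, beside 6.1% and 5.71% of all genes. The other 2 probes of Cd6 gave -3.29 and -0.45, and over the alternatives its fold reached -2.21.

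Spp1, osteopontin, a secreted matrix protein of activated macrophages and other cells, had the largest fold of the 28. Its relative signal over 10 spots was 0.446 in denervated soleus, 0.0505 in plantaris and 0.316 in normal soleus. In plantaris it was 6.26-fold lower (-2.65 ± 0.26), with spots from 0.0339 to 0.0689 there and from 0.295 to 0.353 in normal soleus. No spot overlapped, and the fold lay between -3.01 and -1.52 over all alternatives. With denervation it was higher by 0.50 ± 0.21, and those spots, from 0.384 to 0.483, lay above those of normal soleus.

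Lgals3, galectin-3, a lectin that macrophages secrete, had 10.4 in denervated soleus, 4.36 in plantaris and 10.098 in normal soleus. The soleus arrays differed by less than the error (0.04 ± 0.20), and plantaris was 2.32-fold lower (-1.21 ± 0.20), past 2-fold under every alternative tried with that threshold. Ccl2, the chemokine that draws monocytes, had 0.859 in denervated soleus, 0.386 in plantaris and 0.576 in normal soleus. It was higher with denervation (0.58 ± 0.20) and lower in plantaris (-0.58 ± 0.21), both under 2-fold, and its spots did not overlap between any pair of arrays.

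The neighbouring immune genes were taken from 11 lists that hold 258 genes besides the 33. With denervation 207 were compared, of which 38 (18.4%) passed 2-fold upward and 15 (7.25%) downward, with a median log2 fold of 0.41. In plantaris 195 were compared, of which 3 (1.54%) were 2-fold higher and 25 (12.8%) 2-fold lower, with a median of -0.38. These counts stand beside 8.73% higher and 13.4% lower with denervation, and 5.71% higher and 6.1% lower in plantaris, over all genes. With denervation the median lay above 0 in each of the 11 lists, where that of all genes was 0.03. The medians of the T, natural killer and B cell genes (0.04) and of the cytokines (0.08) lay close to it. Under normexp the median of the cytokines was -0.06 and that of the T, natural killer and B cell genes -0.32 (-0.34 over genes above background on both arrays). The lists overlap in biology with the 33 genes and were chosen with earlier results known, so they are no independent support.

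Complement had the most genes past 2-fold of the 11 lists with denervation. Of 19 compared, 8 were higher and 2 lower, beside 8.73% and 13.4% of all genes, with a median of 0.55. Cfb, factor B of the alternative pathway, had 10.5 in denervated soleus, 1.65 in plantaris and 2.23 in normal soleus (2.23 ± 0.20 with denervation). C3, the central component, had 0.349 in denervated soleus, 0.0194 in plantaris and 0.0764 in normal soleus (2.19 ± 0.24), and C4a, of the classical pathway, had 30.6 in denervated soleus, 3.60 in plantaris and 8.47 in normal soleus (1.85 ± 0.20). These 3 were thus 3.61-fold to 4.70-fold higher with denervation, where the C1q subunits were 1.08-fold to 1.38-fold higher. Over the alternatives the fold of C3 was as low as 1.36 and that of C4a 1.79. In plantaris 4 of 19 were 2-fold lower and 2 higher, beside 6.1% and 5.71% of all genes. Cfi, a protease that inactivates C3b, had the lowest fold there (-2.72 ± 0.21).

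Chemokines and their receptors had 6 of 24 at least 2-fold higher and 1 lower with denervation, beside 8.73% and 13.4% of all genes. Ccl21, which draws T cells and dendritic cells, had 3.82 in denervated soleus, 0.925 in plantaris and 1.39 in normal soleus (1.46 ± 0.20). Ccl3, a chemokine of macrophages, was above background in denervated soleus only, at 0.109, and at least 5.75-fold higher, and Cxcl13, which draws B cells, was higher by 1.51 ± 0.42. Both were faint, and with normexp they differed by 0.80 and 0.35. In plantaris 2 of 21 were 2-fold lower and 0 higher, beside 6.1% and 5.71% of all genes.

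Of further macrophage and myeloid genes, 3 of 27 compared were at least 2-fold higher with denervation and 1 lower, beside 8.73% and 13.4% of all genes. In plantaris 7 of 25 were lower and 0 higher, beside 6.1% and 5.71% of all genes. Sirpa, which receives the CD47 signal that restrains phagocytosis and is also found outside myeloid cells, had 3.32 in denervated soleus, 0.642 in plantaris and 0.874 in normal soleus (1.93 ± 0.20 with denervation), but its second probe gave 0.30 and over the alternatives its fold was as low as 1.11. The other 2 that were higher, Mertk, a receptor for the uptake of dying cells, and Irf8, a transcription factor of myeloid cells, were bounds on faint signals, and Mertk was 0.20 with normexp. Ncf1, a subunit of the phagocyte oxidase, was the 1 that was lower, with 2.53 in denervated soleus, 2.33 in plantaris and 7.01 in normal soleus (-1.47 ± 0.20 with denervation and -1.59 ± 0.20 in plantaris). Cx3cr1, the fractalkine receptor of monocytes and macrophages, had 0.872 in denervated soleus, 1.82 in plantaris and 1.65 in normal soleus (-0.92 ± 0.20 with denervation). Trem2, a lipid-sensing receptor that signals through Tyrobp, had 2.29 in denervated soleus, 0.659 in plantaris and 1.48 in normal soleus (-1.17 ± 0.20 in plantaris). Gpnmb, a glycoprotein of phagocytes, had 1.14 in denervated soleus, 0.283 in plantaris and 1.01 in normal soleus (-1.83 ± 0.21 in plantaris). Both were thus lowest in plantaris, as 26 of the 28 measured genes were against normal soleus. Of 17 further leukocyte genes, 14 were above 0 with denervation, where 51.5% of all genes with a fold were, and none was past 2-fold. In plantaris all 15 compared were below 0, where 47.7% of all genes with a fold were. Of these 15, Coro1a, an actin regulator of blood cells, and Itgb7, an integrin chain, were 2-fold lower, though Itgb7 differed by -0.42 with normexp.

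**Figure D3:**
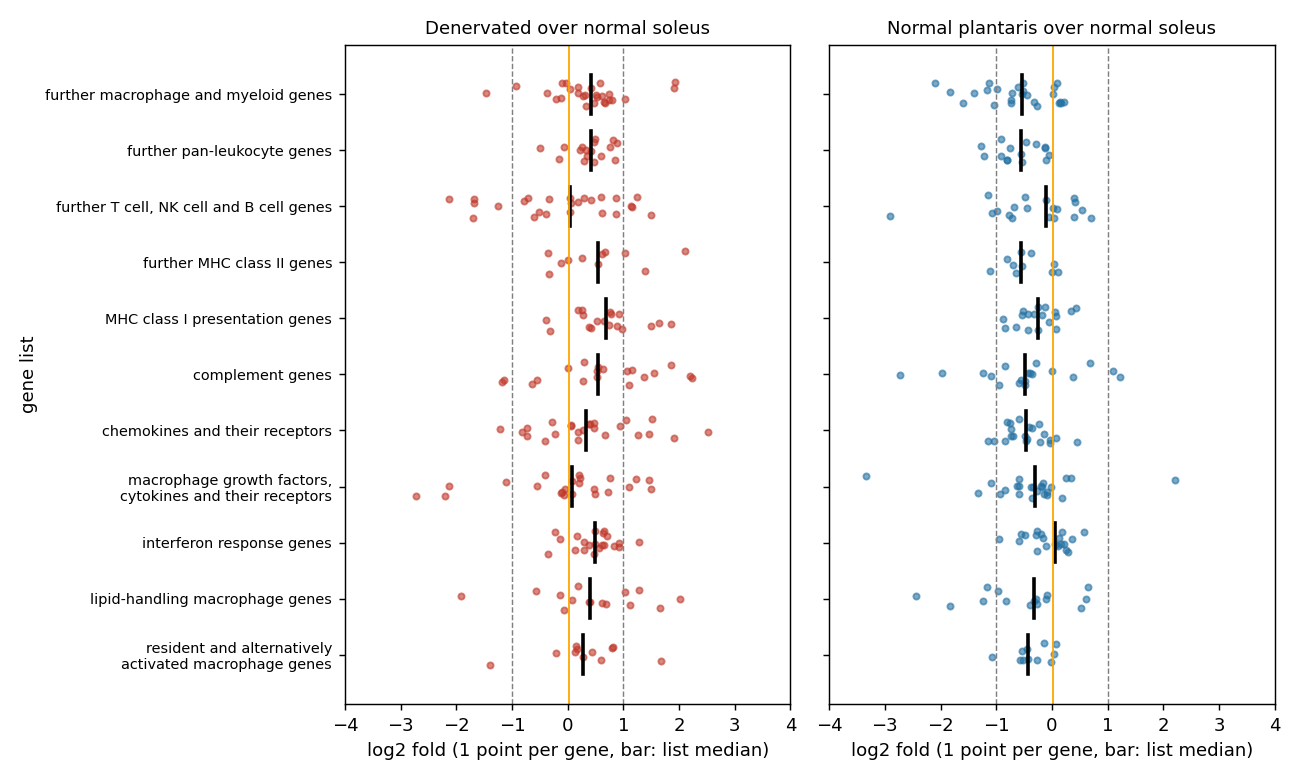
Log2 fold of each compared gene of the 11 wider immune lists (points, bounds included) with the list median (black bar) and the median of all genes (orange line), denervated over normal soleus on the left and plantaris over normal soleus on the right. The complement list holds 8 points past 2-fold on the right of the left panel, and in the right panel 25 genes in all lie past 2-fold to the left, counting each gene once.

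Markers of other cells in the muscle differed between the same arrays. Adipocyte markers had a median log2 fold of 2.40 with denervation (5 of 7 at least 2-fold higher), fibroblast markers 0.73, endothelial markers -0.49, Schwann cell markers -1.10 (2 of 8 at least 2-fold higher and 4 lower) and muscle fibre markers -1.21. Of all genes, 8.73% were 2-fold higher and 13.4% lower with denervation. The tissue labels could be checked against the slow myosin Myh7, which had 184 in denervated soleus, 84.9 in plantaris and 521 in normal soleus, highest in the normal slow muscle and lowest in the faster one. In plantaris the medians were -0.20 for adipocyte, -0.19 for fibroblast, -0.27 for endothelial, 0.08 for Schwann cell and 0.25 for muscle fibre markers. Red blood cell markers, with 5 compared, had a median of 0.46 with denervation and -0.47 in plantaris, the same signs as the medians of the 28 genes. With denervation 4 of the 5 lay above 0 and the haemoglobin gene Hba-a1 was at -0.06. Over the alternatives that median ran from 0.05 to 0.70. Neutrophil markers had a median of -0.28 with denervation and -0.48 in plantaris, mast cell and eosinophil markers 0.53 and -0.10, and dendritic cell markers, with 3 compared, 0.61 and -0.53. The part of these cells in the values of the 28 genes was not tested.

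The median of the measured genes kept its sign under 9 other ways of processing that give a fold, of which spike-in scaling was chosen after seeing the data. It was taken over 28 genes, but over 32 with no filter on dim probes. With denervation it ran from 0.20 with normexp to 0.55 with the authors' scaling, and in plantaris from -1.02 with spike-in scaling to -0.53 with normexp. Some of this range is the array as a whole, since the median of all genes moved to 0.27 with the authors' scaling and 0.21 with spike-in scaling with denervation, and to -0.34 with spike-in scaling in plantaris. Relative to all genes, the median of the members was between 0.28 and 0.47 higher with denervation, and lower in plantaris by values between -0.58 and -0.72. The 0.47 came with no filter on dim probes, and the highest value over 28 genes was 0.34, under quantile normalization. Of all genes past 2-fold with denervation, 39.4% were higher, against 26.5% with normexp, 58.6% with the authors' scaling and 53.8% with spike-in scaling. In plantaris the share was 48.3%, against 21.3% with spike-in scaling.

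**Figure D4:**
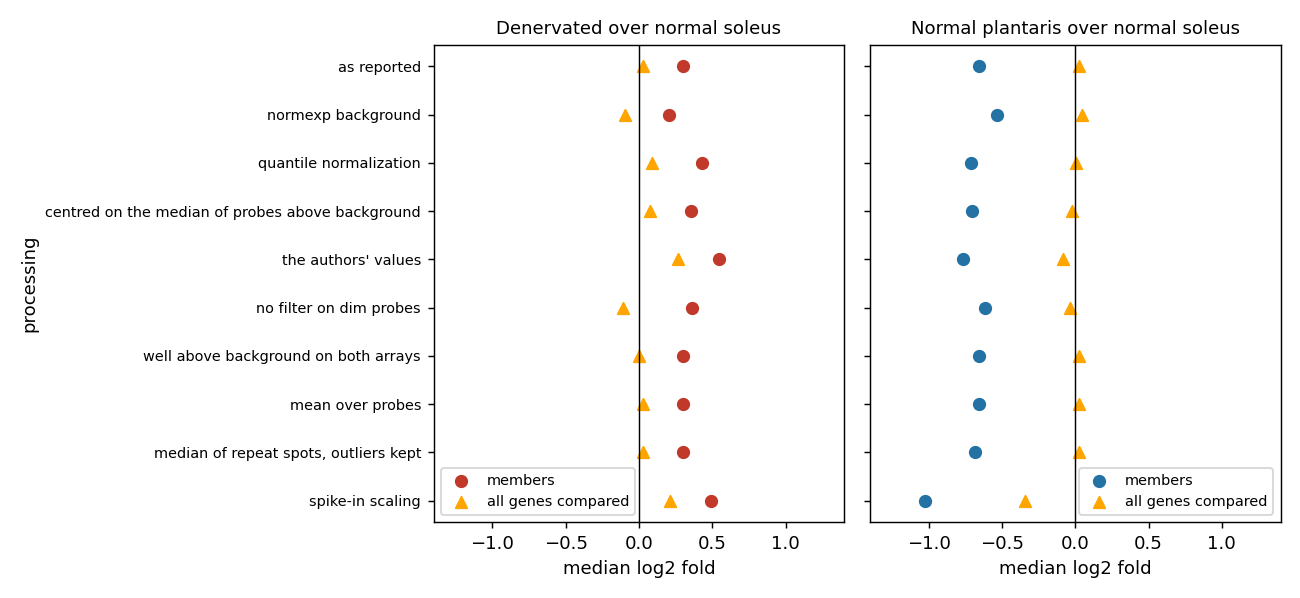
Median log2 fold of the measured members (circles) and of all genes compared (triangles) under each way of processing, denervated over normal soleus on the left and plantaris over normal soleus on the right. In the row with no filter on dim probes the circles take all 32 members with a probe. The circles lie right of the triangles in every row on the left and left of them in every row on the right.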

How the data were processed

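Muscle RNA was labelled with Cy3 and measured on 3 one-colour Agilent arrays, 1 per group. The submitters' processing notes name Agilent Feature Extraction 10.10.1.1. Per the file headers, the processed signals are linear intensity values from which that software had removed background and a trend across the array, without scaling between arrays, and other columns hold its error and flags of 0 or 1. The authors' deposited value table is also an intensity, equal to those signals multiplied by 1.41 for denervated soleus, 1.80 for plantaris and 1.60 for normal soleus, with column medians of 243, 181 and 204. Its scale is thus linear and uncentred, and the origin of these factors is unknown.

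Log2 signals were set against the 75th percentile of each array's 58717 spots other than controls. Outlier spots (569 on the denervated soleus, 467 on the plantaris and 487 on the normal soleus array) were dropped. The software marked 0 as saturated. Spots of the same probe were averaged. A probe was called well above background if 50% or more of its spots were, and the probe brightest over the 3 arrays stood for its gene. A comparison took genes well above background on either array. Where a gene was so on 1 only, its fold is written with "at least" and taken against the dim array's own value or its faintest signal well above background, whichever was higher. RefSeq accessions gave a symbol to 17997 of 30367 probes (15162 genes). A count takes genes at least 2-fold apart, a rule of size and not a test, since 1 array per group allows none and limits the precision.

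All 33 members are named, and from each wider list up to 3 genes with the largest folds measured on both arrays and up to 2 with the largest bounds. Genes named outside this rule are said to be chosen after their values were seen. The members and lists were chosen with earlier results of these data known. Alternatives were normexp background subtraction (limma 3.58.1 in R 4.3.3, offset 50), quantile normalization, median centring, the authors' values, the filter on dim probes, the mean over probes, the median of repeat spots with outliers kept, a threshold of 1.5-fold and, after seeing the data, scaling to 8 spike-in control probes. The files hold no mean spot signal, so normexp used the median spot signal. The steps were tested on simulated data. Probe coordinates are on an older rat assembly and are not printed.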

Additional observations from a re-analysis of the deposited data

How the results depend on the processing

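No called fold of a member turned direction, nor did the median over the members. Among the wider genes named, RT1-CE5 (1.502 with denervation) was -0.04 as the mean over its probes. With denervation the count of members 2-fold higher was 0, but 1 under quantile normalization (Cd74), 1 under centring on the median, 1 under the authors' values and 1 under spike-in scaling (Prf1 in these 3), and 7 at a 1.5-fold threshold. The count lower was 0, but 1 under quantile normalization (Cd3d), 1 with no filter on dim probes and 2 at 1.5-fold. Over all genes the count higher was 988 of 11313, but 1077 under quantile normalization and 1087 under centring on the median. It was 1568 under the authors' values and 1391 under spike-in scaling. The count of all genes lower was 1518, but 1391 under quantile normalization and 1893 of 15162 with no filter on dim probes. In plantaris the members lower numbered 4, but 2 under normexp, 8 under the authors' values, 15 under spike-in scaling and 17 at 1.5-fold. Prf1 was also past 2-fold there under centring on the median. All genes lower in plantaris numbered 672 of 11010, but 286 of 11007 under normexp and 709 under centring on the median. They numbered 789 under the authors' values and 1247 under spike-in scaling. No share of all genes is given at 1.5-fold, so counts at that threshold are no result about the members or lists alone. The median of members was 0.55 with denervation under the authors' values and -1.02 in plantaris under spike-in scaling, and both moved with the median of all genes. Of the wider lists with denervation, 22 genes were higher under normexp and 79 at 1.5-fold against 38, and 23 were lower at 1.5-fold against 15. Under normexp 367 of 11317 genes in all were higher with denervation. In plantaris 7 were higher at 1.5-fold and 1 under spike-in scaling against 3, and 12 were lower under normexp, 58 under spike-in scaling and 64 at 1.5-fold against 25. All genes higher in plantaris numbered 629 of 11010, but 337 under spike-in scaling. Of single-member folds under the alternatives, 247 kept their side of 2-fold with denervation and 5 passed it, and in plantaris 234 kept it, 2 lost it and 16 passed it. Normexp changes faint probes most by its construction, since it adds an offset. The cause of the other differences was not tested. No paired analysis was possible because each group has 1 array. Faint signals limit Mrc1, Cd4, Cd5 and Prf1, and 4 members have no fold.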

Other observations

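Genes by which macrophages handle lipid were among the wider lists. This list shares Trem2 and Gpnmb, both 2-fold lower in plantaris, with that of further macrophage and myeloid genes, so their counts overlap. Of 15 compared, 5 were at least 2-fold higher with denervation and 1 lower, beside 8.73% and 13.4% of all genes, with a median log2 fold of 0.40. In plantaris 4 were lower and 0 higher, beside 6.1% and 5.71% of all genes, with a median of -0.32. Abca1 and Abcg1, which export cholesterol from cells, had log2 folds of 2.02 ± 0.22 and 1.65 ± 0.21 with denervation. Their relative signals were 0.484 and 0.974 in denervated soleus, against 0.120 and 0.310 in normal soleus. Apoe, Nr1h3 and Ctsk, chosen after their values were seen, were the other 3 past 2-fold. Lpl, the lipase that frees fatty acids from lipoproteins, had 2.41 in denervated soleus, 1.67 in plantaris and 9.06 in normal soleus, the lowest fold of the list in both comparisons (-1.91 ± 0.20 with denervation and -2.44 ± 0.20 in plantaris). Muscle, fat and vessel cells carry several of these genes too, and adipocyte markers had a median of 2.40 with denervation, whose part in these values was not tested. Slc40a1, the iron exporter, was higher with denervation (1.68 ± 0.21), and Cd36, a fatty acid transporter, was lower (-1.39 ± 0.20), each on its brighter probe and with the same direction on the other (1.37 for Slc40a1 and -1.28 for Cd36).

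The growth factor and cytokine list differed in both directions with denervation, with 4 of 23 at least 2-fold higher and 4 lower. The shares of all genes were 8.73% higher and 13.4% lower. Csf2ra, the receptor chain for granulocyte-macrophage colony-stimulating factor, had 1.66 in denervated soleus, 6.89 in plantaris and 7.65 in normal soleus (-2.21 ± 0.20 with denervation). Tgfbr2, a receptor for transforming growth factor beta, and Il6r, the interleukin 6 receptor, were higher with denervation (1.49 ± 0.21 and 1.47 ± 0.22), though Tgfbr2 differed by 0.95 with normexp. Csf3r, the receptor for granulocyte colony-stimulating factor, was lower by a bound of -2.13, which over the alternatives was as small as -1.22. Csf1, the ligand of Csf1r, had a log2 fold of 1.11 with denervation and -0.59 in plantaris, a gene chosen after its value was seen, while Csf1r itself had 0.10 ± 0.21 and -0.33 ± 0.21. Il15, a cytokine that muscle fibres also make, had 0.351 in denervated soleus, 0.979 in plantaris and 0.212 in normal soleus, and was the only gene of the list 2-fold higher in plantaris (2.21 ± 0.21). Il1rl1, the receptor for interleukin 33, was above background in normal soleus only, at 0.113, and at least 6.60-fold lower in denervated soleus and at least 10.12-fold lower in plantaris on its brighter probe, where a second probe differed by -1.07 and -2.43 log2 units. These bounds depend on the processing, and over the alternatives they were as small as -1.89 and -1.75 log2 units. Of 21 interferon response genes, 18 were above 0 with denervation, where 51.5% of all genes with a fold were, with a median of 0.50. Only 1, the antiviral gene Rsad2, passed 2-fold upward (1.29 ± 0.21, and 0.99 with normexp), beside 8.73% of all genes. In plantaris the same list had 11 above 0 and 10 below, beside 52.3% and 47.7% of all genes with a fold. The list median of 0.05 became negative under other settings.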
